A study of Mus musculus with 8 samples.

Results

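Chromatin accessibility was examined at 8 regulators of the primitive streak in mouse embryoid bodies at day 4 of differentiation. The genes were T (brachyury), Eomes, Mixl1, Gsc, Lhx1, Evx1, Nodal and Lefty2. Each of the 168842 regions in the deposited ATAC-seq table was assigned to the protein-coding gene whose mm10 span was nearest to the region's midpoint, if the midpoint lay inside that span or within 100 kb of it. This gave 119 regions for the 8 genes, all 401 bp wide: 30 for Lhx1, 25 for Gsc, 21 for Eomes, 14 for Evx1, 9 for T, 8 for Nodal, 7 for Mixl1 and 5 for Lefty2. The assignment rests on distance alone and does not show that a region acts on the gene.

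The primitive streak is the site at which cells of the epiblast leave the surface layer and become mesoderm and endoderm. Nodal, a ligand of the TGF-beta family, signals through activin receptors and SMAD2 and SMAD3, and Lefty2 is a secreted inhibitor of that signal. T and Eomes encode T-box transcription factors, which act in the streak together with Wnt signals, and Mixl1, Gsc, Lhx1 and Evx1 encode homeodomain transcription factors. As cells become FLK1+ mesoderm and then blood vessel and blood precursors, the streak genes are known to be switched off, and Etv2, an ETS transcription factor, starts the vessel and blood program.

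The 8 libraries form 4 groups of 2, each made from sorted live cells of day 4 embryoid bodies by the Omni-ATAC procedure, an assay whose transposase, Tn5, inserts sequencing adapters wherever chromatin is open. The wildtype embryonic stem cell line A2lox.Cre gave WT DP, the PDGFRalpha+FLK1+ (double positive) sort, and WT SP, the PDGFRalpha-FLK1+ (single positive) sort. KO DP holds the same PDGFRalpha+FLK1+ sort from an Etv2 knockout line, and OE SP the PDGFRalpha-FLK1+ sort from the iETV2 line, which overexpressed Etv2 after doxycycline at 2 µg/ml from day 2.5. The labels name doxycycline only for iETV2, so line, genotype and drug cannot be told apart in the OE SP comparison, nor line and genotype in that of KO DP. Nothing in the labels tells if the 2 libraries of a group are separate cultures, and the p-values measure the spread between these libraries only, which may be technical.

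Values are normalized reads, that is, reads in a region after the authors' scaling of each library. The recovered reads in regions ran from 12477601 to 18853733 per library, and the median region held 27 to 42 reads. The pair of OE SP libraries differed more than the other pairs, with a chi-square per degree of freedom of 4.34 against 1.15 to 1.22 and a log2 correlation of 0.937 against 0.975 to 0.978. At Etv2, the targeted gene, the region chr7:30634628-30635028 held 563 and 611 normalized reads in WT DP cells, 475 and 493 in WT SP cells, 425 and 645 in OE SP cells, and 0.84 and 0 in KO DP cells. Regions were assigned to Kdr (which encodes FLK1) and Pdgfra in every library, and in all 5 marker lists every gene had signal in every library, so no marker gene was at 0.

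RefSeq promoter windows of GRCm38.p6 were matched for 6 of the 8 genes, and the 250 bases before the start are printed for the 3 genes whose window lay in a measured region, since the start regions of Lhx1 and Evx1 fell in OE SP and that of Gsc did not pass the test. All sequences run 5′ to 3′ toward the gene, and capitals mark a match to CCAAT or TATAAA. The Lhx1 window is chr11:84525535-84525784, minus strand, the Gsc window is chr12:104473237-104473486, minus strand, and the Evx1 window is chr6:52313248-52313497, plus strand.
Lhx1: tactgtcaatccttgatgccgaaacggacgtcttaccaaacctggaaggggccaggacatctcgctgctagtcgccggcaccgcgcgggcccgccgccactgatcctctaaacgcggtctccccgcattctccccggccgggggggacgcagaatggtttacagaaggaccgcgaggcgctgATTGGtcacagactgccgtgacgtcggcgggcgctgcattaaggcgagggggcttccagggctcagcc
Gsc: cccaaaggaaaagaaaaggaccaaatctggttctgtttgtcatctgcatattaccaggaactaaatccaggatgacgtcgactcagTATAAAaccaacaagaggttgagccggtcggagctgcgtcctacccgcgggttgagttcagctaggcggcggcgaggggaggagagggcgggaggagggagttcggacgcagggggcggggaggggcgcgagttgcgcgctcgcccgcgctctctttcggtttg
Evx1: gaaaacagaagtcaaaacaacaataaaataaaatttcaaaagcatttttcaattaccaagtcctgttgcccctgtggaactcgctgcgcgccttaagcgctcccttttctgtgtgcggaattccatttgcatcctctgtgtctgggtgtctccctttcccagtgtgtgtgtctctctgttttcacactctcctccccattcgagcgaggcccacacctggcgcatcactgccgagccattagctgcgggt
All 250 bases of the Lhx1 and Gsc windows and 170 bases of the Evx1 window lie inside a region of the table. The Lhx1 window holds ATTGG, the reverse complement of CCAAT, 68 bases before the start, the Gsc window holds TATAAA 164 bases before the start, and the Evx1 window holds neither. On either strand, CCAAT was found in 4 of the 6 windows and in 33.8% of 32851 promoter windows of the same length, and TATAAA in 1 of 6 and in 12.4%. These 2 motifs were chosen after the sequences were seen. Letters for 6 regulator families were also searched on both strands: TCACACCT for T-box factors (1.12% of all windows), CGGAAGT for ETS factors (4.92%), TGTGGATT for FOXH1 (0.718%), CTTTGAT for TCF/LEF (3.21%), TAATCC for bicoid-type homeodomains (6.25%) and AGATAA for GATA factors (9.99%). None of these letters was in any of the 6 windows.

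Across the 119 regions, signal near the streak genes was lowest in OE SP and mostly highest in the PDGFRalpha+FLK1+ cells. OE SP had the lowest group mean in 89 of the 119 regions (74.8%, against 43.6% of all regions in the table). WT DP had the highest mean in 46 (38.7%, against 20.5%) and KO DP in 37 (31.1%, against 19.2%). The members were strong regions, with a median over the 8 libraries of 80.5 normalized reads against 36.0 for all regions. Summed over the 119 regions, the libraries held 18870 and 18660 normalized reads in WT DP cells, 15230 and 15000 in WT SP cells, 19050 and 18310 in KO DP cells, and 8958 and 9468 in OE SP cells. The OE SP sums lay below all others and the WT SP sums lay below those of WT DP and KO DP. In sorted bulk cells, fewer cells with an open region and less opening per cell cannot be told apart.

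**Figure D1:**
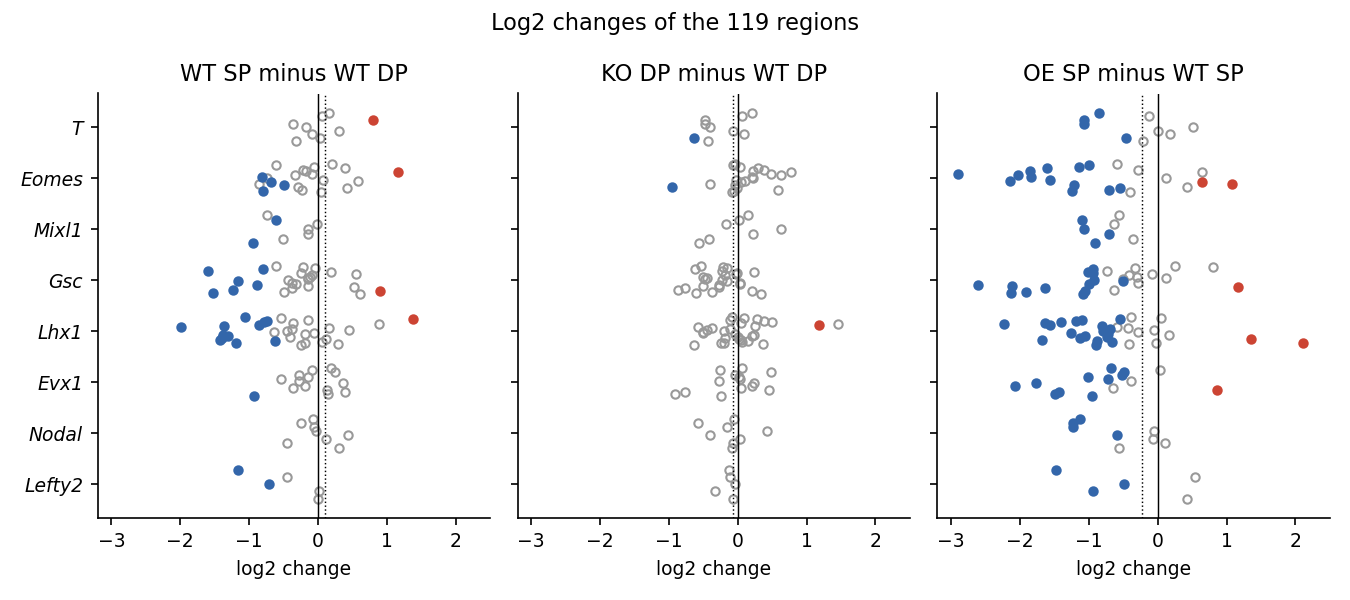
Log2 change of each of the 119 regions in the 3 comparisons, by gene (the x axis is the log2 change of normalized reads with a pseudocount of 5, and 1 point is 1 region). Blue and red points were called lower and higher and grey rings were not called, and the dotted line is the median of all regions (0.106, -0.0693 and -0.221). Falls gather in the OE SP panel, where 70 regions were called lower, and 3 regions were called in the KO DP panel.

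The first comparison, between the wildtype sorts, asked what differs between PDGFRalpha-FLK1+ and PDGFRalpha+FLK1+ cells. In WT SP, 27 of the 119 regions (22.7%) were lower than in WT DP and 4 (3.36%) were higher, while 8.12% and 6.2% of all regions were called lower and higher. Lhx1 had 12 of the falls, Gsc 6, Eomes 4, Mixl1 and Lefty2 2 each and Evx1 1, and no Nodal or T region was called lower. The single rises were at T, Eomes, Gsc and Lhx1. The median change was -0.211, against 0.106 for all regions. Calls are from limma on log2(value + 5) with Benjamini-Hochberg adjustment over 167573 regions, at an adjusted p below 0.05. Leaving out a library lowered the count of falls to 10 without WT DP replicate 1, to 8 without its replicate 2, to 9 without WT SP replicate 1 and to 10 without its replicate 2, and the count of rises to 1 each time. Fits without a library leave 1 library in a group, and calls over all regions became fewer in them as well. Under every setting run, 8 falls and 1 rise were called: 5 falls and the rise at Lhx1, 2 falls at Gsc and 1 at Lefty2.

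The second comparison asked what Etv2 loss changed in PDGFRalpha+FLK1+ cells. Here 2 of the 119 regions (1.68%) were lower in KO DP, 1 at T and 1 at Eomes, and 1 region (0.84%) at Lhx1 was higher, against 2.21% lower and 1.72% higher over all regions. The members' median change was -0.056, against -0.0693 for all regions. None of the 3 calls was made when any 1 of the 4 WT DP and KO DP libraries was left out. The changes were then -0.695 to -0.567 at T, -1.18 to -0.721 at Eomes and 1.06 to 1.31 at Lhx1. Such a fit leaves 1 library in a group, and calls over all regions became fewer too, so the loss is not particular to these regions. With the 2 compared groups fitted alone, 19 regions were lower and 11 higher, against 13.1% and 8.89% of all regions. A change that did not pass is not shown to be absent.

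The third comparison asked what forced Etv2 expression changed in PDGFRalpha-FLK1+ cells. In OE SP, 70 of the 119 regions (58.8%) were lower than in WT SP and 6 (5.04%) were higher, against 31.9% and 16.6% of all regions. All 8 genes had regions that fell: 19 at Lhx1, 13 each at Gsc and Eomes, 10 at Evx1, 4 each at T, Mixl1 and Nodal and 3 at Lefty2. The rises were 2 at Lhx1, 2 at Eomes and 1 each at Gsc and Evx1. The median change was -0.702, against -0.221 for all regions. Of the calls, 92.1% were falls, and with median-of-ratios scaling, under which the table's median changed from -0.221 to -0.00366, 53 regions were lower and 12 higher, so that 81.5% were falls. Over all regions falls made up 65.8% of the calls, and 52.1% with that scaling, under which 25.4% of regions were lower and 23.3% higher. Without WT SP replicate 1 the counts were 45 lower and 3 higher, and without OE SP replicate 2 they were 77 and 10. Under every setting run, 38 falls and 2 rises were called: falls of 11 regions at Eomes, 9 at Lhx1, 6 at Gsc, 4 at Evx1, 3 each at Mixl1 and Nodal and 1 each at T and Lefty2, and rises of 1 region each at Gsc and Lhx1. The WT SP libraries are shared with the comparison of the wildtype sorts, which shares WT DP with that of KO DP, so that a high or low value in a shared library enters both.

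The larger share of falls near the streak genes was seen in each class of signal. In OE SP, 17 of 39 member regions with a mean under 50 normalized reads were lower (43.6%, against 27.3% of all regions of that class with a gene), 31 of 52 with a mean of 50 to 200 (59.6%, against 39.8%) and 22 of 28 with a mean of 200 or more (78.6%, against 30.4%). In WT SP the shares were 12.8% against 6.99%, 28.8% against 9.99% and 25.0% against 3.64%. The plot of shares by signal shows the blue bars above the grey ones in all 6 places. These are descriptions, since the classes were not tested against each other.

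**Figure D2:**
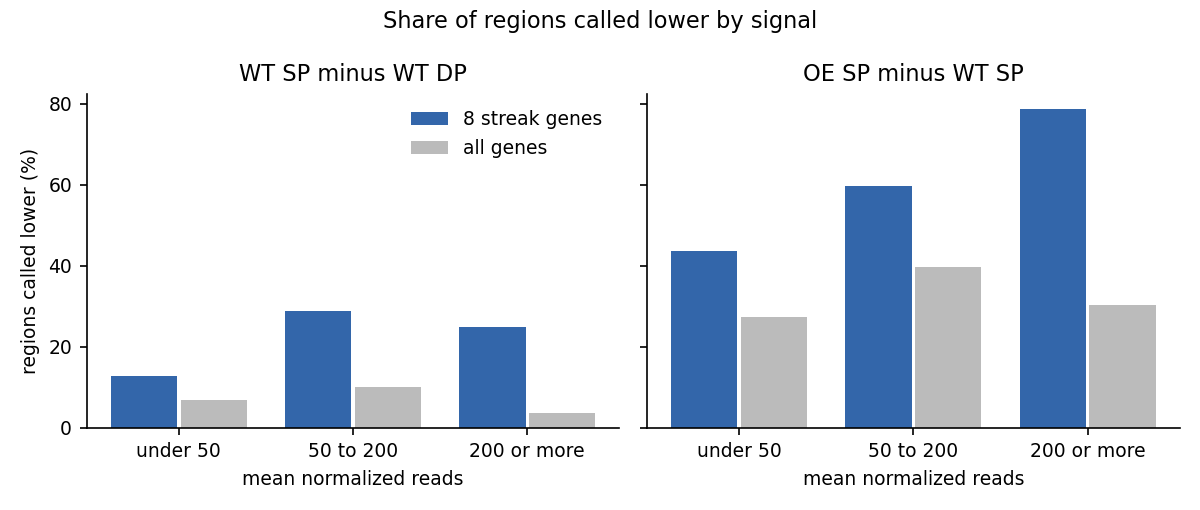
Share of regions called lower (y axis, percent) by mean signal over the 8 libraries (x axis, normalized reads), for the 119 regions of the 8 streak genes (blue) and all regions with a gene within 100 kb (grey). In OE SP the blue bars rise from 43.6% to 78.6% with signal and the grey bars stand between 27.3% and 39.8%.

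Nodal encodes the ligand. Its span is chr10:61417972-61425338 (mm10, plus strand), and 3 of its 8 regions overlap it. The strongest, inside the gene at chr10:61419135-61419535, held 229 and 223 normalized reads in WT DP cells, 238 and 255 in WT SP cells, 233 and 231 in KO DP cells and 284 and 193 in OE SP cells. The OE SP libraries stood on either side of the other 6, and no comparison was called. Of the 4 upstream regions, 3 were lower in OE SP, against 31.9% of all regions, and the nearest, chr10:61413307-61413707 at 4.46 kb, was not called (-0.05, adjusted p = 0.855). The region chr10:61410178-61410578, 7.59 kb upstream, held 56.3 and 57.5, 57 and 52.5 and 45.3 and 55.9 normalized reads in WT DP cells, WT SP and KO DP, and 19.7 and 21 in OE SP cells. Both OE SP libraries lay below the other 6, a log2 change from WT SP of -1.24 ± 0.21 (SE, adjusted p = 0.000512). Regions 11.8 and 9.87 kb upstream, at chr10:61405934-61406334 and chr10:61407904-61408304, were lower in OE SP by -1.12 and -1.23 on the log2 scale. The first of them held 142 and 73.6 normalized reads in OE SP cells and 219 to 247 elsewhere, and its change was -0.68 without OE SP replicate 2 and -1.57 on the other extreme, without OE SP replicate 1.

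At the start of Nodal, the region chr10:61418079-61418479 held 217 and 225 normalized reads in WT DP cells, 322 and 280.5 in WT SP cells, 157 and 177 in KO DP cells and 216 and 180.0 in OE SP cells. WT SP was highest and the fall in OE SP was -0.60 ± 0.17 (SE, adjusted p = 0.0117), which was not called without WT SP replicate 1 (highest adjusted p on leaving out a library 0.113) or with median-of-ratios scaling. Neither the wildtype sorts nor KO DP and WT DP gave a call at Nodal.

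Lefty2, the inhibitor, has its span at chr1:180893108-180899107 and 5 regions, all within 10 kb. The region chr1:180883685-180884085, 9.22 kb before the lower coordinate of the span, held 387 and 401 normalized reads in WT DP cells, 375 and 342 in KO DP cells, 173 and 176 in WT SP cells and 52.5 and 67 in OE SP cells. The groups formed 3 levels that did not overlap, with both PDGFRalpha+FLK1+ groups at the top. WT SP was lower than WT DP by -1.15 ± 0.17 (SE, adjusted p = 0.00141), and OE SP was lower than WT SP by -1.48 ± 0.17 (adjusted p = 3.9e-05), both in every setting run. The strongest Lefty2 region, chr1:180888573-180888973, behaved otherwise: its OE SP libraries held 656 and 297 normalized reads, against 305 and 296 in WT SP cells, and it was not called. At chr1:180889854-180890254 the values were 239 and 290.1, 142 and 176, 287 and 228 and 104 and 118 in the order WT DP, WT SP, KO DP and OE SP. The falls there were -0.71 in WT SP (adjusted p = 0.0278) and -0.50 in OE SP (adjusted p = 0.0487). The first was not called when any 1 of its 4 libraries was left out. The second was not called when either WT SP library was left out. It was also lost with a pseudocount of 1, either rescaling, the compared groups alone, the replicate block, edgeR or DESeq2. Inside the gene, chr1:180893390-180893790 fell in OE SP (-0.94, adjusted p = 0.00625, not called without WT SP replicate 1, where the adjusted p was 0.0582), and chr1:180894220-180894620 was not called (OE SP 0.42).

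T, the founding T-box factor and a target of Wnt signals in the streak, has its span at chr17:8434423-8442496 (plus strand). No region analysed here overlaps its start, and the promoter window of T is not in a region. The region with the highest mean, chr17:8468734-8469134, lies 26.4 kb downstream and held 243 and 252 normalized reads in WT DP cells, 256 and 253 in WT SP cells, 165 and 151 in KO DP cells and 174 and 193 in OE SP cells. The wildtype libraries lay together, and the KO DP and OE SP libraries lay below them. The KO DP change was -0.63 ± 0.16 (SE, adjusted p = 0.0476), and -0.695 to -0.567 when a library was left out. It was not called when any 1 of its 4 libraries was left out, or with a pseudocount of 1, the replicate block or DESeq2. The OE SP change was -0.46 ± 0.16 (adjusted p = 0.0296), and -0.537 to -0.387 when a library was left out. It was not called without either WT SP library, or with either rescaling, the compared groups alone, edgeR or DESeq2. The next region, chr17:8455151-8455551, 12.9 kb downstream, held 220.4 and 193, 159.8 and 158 and 158 and 138 normalized reads in WT DP cells, WT SP and KO DP and 52.5 and 99.8 in OE SP cells. It fell in OE SP by -1.08 ± 0.25 in every setting run, from -1.51 without OE SP replicate 2 to -0.64 without OE SP replicate 1.

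Closer to T, chr17:8447720-8448120 held 29.1 and 23.4 normalized reads in WT DP cells, 52.9 and 45.6 in WT SP cells, 15.9 and 19 in KO DP cells and 20.4 and 21 in OE SP cells. WT SP was highest, and this was the T region called higher in WT SP (0.80, adjusted p = 0.0409) and lower in OE SP (-1.07, adjusted p = 0.00257, not called with DESeq2). The rise was 0.666 to 0.933 when a library was left out, and no such fit called it. It was also not called with a pseudocount of 1, either rescaling, the replicate block or DESeq2. Inside the gene, chr17:8435356-8435756 held 59 and 50.6 normalized reads in WT SP cells and 29.9 and 26.3 in OE SP cells. That fall was -0.85 ± 0.22 (SE, adjusted p = 0.00742), and was not called with DESeq2 or without WT SP replicate 1 (adjusted p = 0.0686).

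Eomes, the T-box factor that acts with Nodal in the early streak, has its span at chr9:118478186-118486132 (plus strand). Its strongest region lies 0.866 kb past the gene's end at chr9:118486798-118487198. It held 849 and 799 normalized reads in WT DP cells, 859 and 729.7 in KO DP cells, 456 and 486 in WT SP cells and 225 and 169.5 in OE SP cells. As at Lefty2, WT SP lay between the PDGFRalpha+FLK1+ groups and OE SP with no overlap. The change in WT SP against WT DP was -0.80 ± 0.17 (SE, adjusted p = 0.00852), and -0.847 to -0.756 when a library was left out, with no call. In OE SP against WT SP it was -1.25 ± 0.17 (adjusted p = 0.000102). The region chr9:118468163-118468563, 9.82 kb upstream, held 356 and 365, 345 and 354, 258 and 249.8 and 104 and 108 in the same order and fell in OE SP by -1.22 ± 0.15. Its change in WT SP was -0.50 (adjusted p = 0.0451), and -0.52 to -0.477 when a library was left out, with no call. It was also not called with a pseudocount of 1, the replicate block or DESeq2.

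Upstream of Eomes the OE SP changes varied from region to region. Of 17 regions on that side 10 fell and 2 rose, against 31.9% and 16.6% of all regions. Those 93.4 and 88 kb away fell by -1 and -1.14, and those 99 and 80.5 kb away were not called (-0.59 and -0.29). The region chr9:118446688-118447088, 31.3 kb upstream, held 61.1 and 76.3 normalized reads in WT SP cells and 10.2 and 13.1 in OE SP cells (-2.14 ± 0.25, adjusted p = 4.43e-05). At chr9:118421983-118422383, 56 kb upstream, WT SP held 39.7 and 51.5 and OE SP 8.75 and 9.2 (-1.85 ± 0.22, adjusted p = 4.46e-05). WT DP held 91.2 and 76.3 there, and the change in WT SP against WT DP was -0.82 (adjusted p = 0.027). That change was -0.985 to -0.646 when a library was left out, with no call, and DESeq2 did not call it either. The largest fall of all 119 regions, named after its values were seen, was at chr9:118416032-118416432, 62 kb upstream. It held 274 and 242 normalized reads in WT DP cells, 269 and 217 in WT SP cells, 391 and 330.4 in KO DP cells and 13.9 and 52.5 in OE SP cells, a change of -2.90 ± 0.37 from WT SP (SE, adjusted p = 7.78e-05). The OE SP libraries differed widely there, and the change was -3.71 without OE SP replicate 2 and -2.10 without OE SP replicate 1.

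Other Eomes regions did not follow the falls. The region chr9:118456491-118456891, 21.5 kb upstream, held 136 and 143 normalized reads in WT DP cells, 82.4 and 87.2 in WT SP cells, 134 and 154 in KO DP cells and 148 and 125 in OE SP cells. It was lower in WT SP (-0.68, adjusted p = 0.0246, up to 0.176 when a library was left out) and higher in OE SP than in WT SP (0.65, adjusted p = 0.00964, 0.0698 without WT SP replicate 1). At chr9:118412376-118412776 WT SP held 39.7 and 31.7 normalized reads against 13.6 and 12.6 in WT DP cells, a rise of 1.16 (adjusted p = 0.0218, up to 0.174 when a library was left out). The Eomes region called in KO DP, chr9:118471278-118471678, 6.71 kb upstream, held 42.8 and 60.6 normalized reads there against 108 and 98.8 in WT DP cells (-0.95 ± 0.23, adjusted p = 0.0401). Its change was -1.18 to -0.721 when a library was left out, and no such fit called it. It was also not called with a pseudocount of 1, either rescaling, the replicate block or DESeq2. Inside the gene, chr9:118478744-118479144 and chr9:118480891-118481291 fell in OE SP by -0.54 and -0.70, with adjusted p up to 0.0723 without either WT SP library for the first and 0.254 without WT SP replicate 1 for the second (then -0.40), and neither was called with median-of-ratios scaling.

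**Figure D3:**
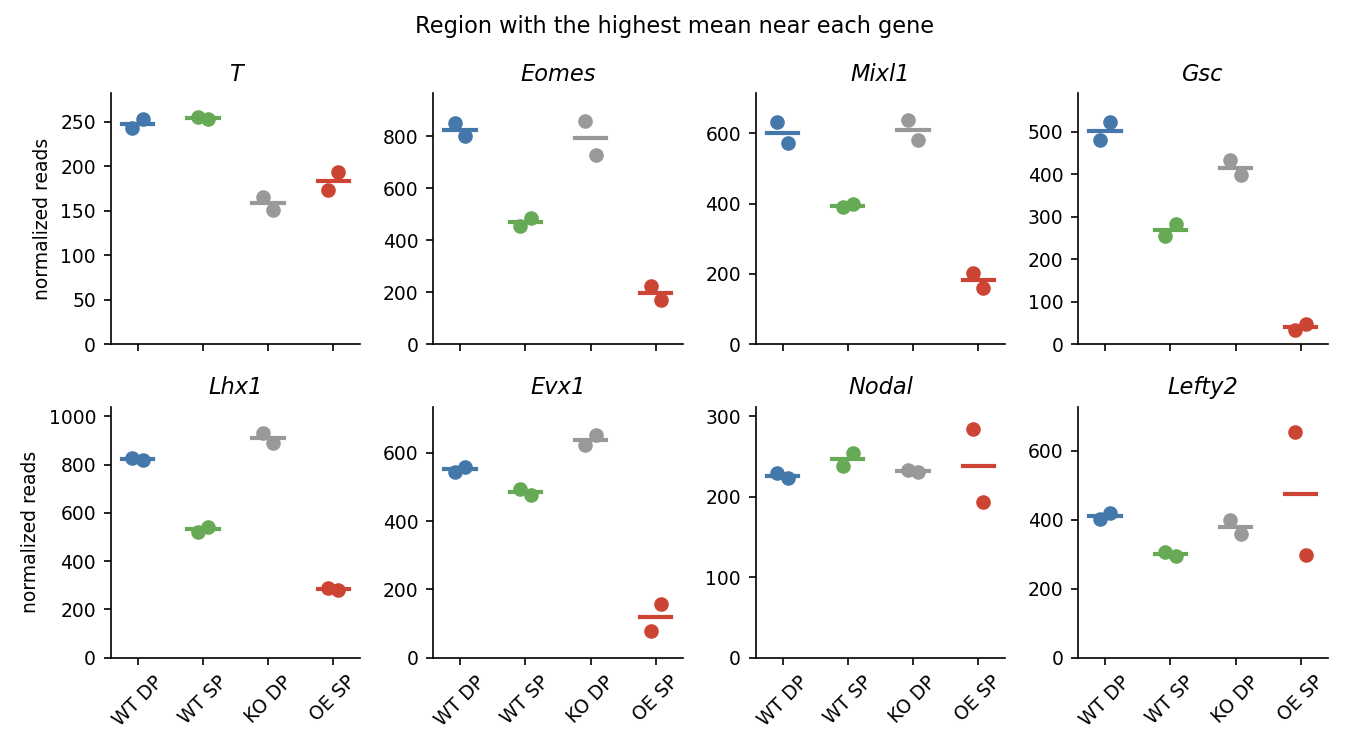
Normalized reads in each library (points) and group means (bars) for the region with the highest mean near each gene, with the y axis starting at 0 and a scale of its own for each gene. The OE SP points lie below those of WT SP in 6 panels, and at Nodal and Lefty2 1 OE SP point lies above both WT SP points and the other does not.

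Mixl1, a homeodomain gene of the streak, has its span at chr1:180693043-180697034. All 7 of its regions lie outside the span and within 12.5 kb. The strongest, chr1:180697285-180697685, lies 0.451 kb beyond the higher coordinate of the span. It held 632 and 571 normalized reads in WT DP cells, 636 and 581 in KO DP cells, 389 and 398 in WT SP cells and 203 and 160.3 in OE SP cells, 3 levels that did not overlap. WT SP was lower than WT DP by -0.60 ± 0.16 (SE, adjusted p = 0.0265, up to 0.222 when a library was left out) and OE SP lower than WT SP by -1.10 ± 0.16 (adjusted p = 0.000172). At chr1:180709343-180709743 the values were 230.1 and 220.1 in WT DP cells, 151 and 151 in KO DP cells, 108 and 121 in WT SP cells and 52.5 and 64.4 in OE SP cells, and WT SP (-0.95, adjusted p = 0.00509) and OE SP (-0.92, adjusted p = 0.0012) were again lower. The first of those calls was kept on leaving out WT SP replicate 2 and not on leaving out any other of its 4 libraries (adjusted p up to 0.0744). At chr1:180702654-180703054 KO DP held 241 and 257 normalized reads against 159 and 158 in WT DP cells, a change of 0.63 that did not pass (adjusted p = 0.15), and OE SP held 48.9 and 86.7 against 151 and 135 in WT SP cells, a fall of -1.07 (adjusted p = 0.00217; -1.45 without OE SP replicate 2 and -0.69 without OE SP replicate 1).

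Gsc (goosecoid), a homeodomain repressor of the anterior streak and organizer, has its span at chr12:104471209-104473236 (minus strand). Its start region, chr12:104473109-104473509, which holds the sequence printed above, had 248 and 212 normalized reads in WT DP cells, 213 and 217 in WT SP cells, 212 and 190.2 in KO DP cells and 174 and 147 in OE SP cells. The OE SP libraries were the lowest, but the change of -0.41 ± 0.17 did not pass (SE, adjusted p = 0.0629), and neither did the others. Inside the gene, chr12:104471690-104472090 was not called in any comparison. The region chr12:104470531-104470931, 0.478 kb past the gene's end, held 78.4 and 93.2 in WT SP cells and 39.4 and 44.7 in OE SP cells, a fall of -0.95 (adjusted p = 0.00353) that DESeq2 did not call.

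The strongest Gsc region, chr12:104501709-104502109, lies 28.7 kb upstream and held 480.5 and 522 normalized reads in WT DP cells, 432 and 398 in KO DP cells, 254 and 284 in WT SP cells and 33.6 and 47.3 in OE SP cells. No group overlapped another. The OE SP change of -2.61 ± 0.18 from WT SP (SE, adjusted p = 3.93e-06) had the lowest adjusted p among the 119 regions. The change in WT SP was -0.89 (adjusted p = 0.00783, up to 0.102 when a library was left out). At chr12:104555132-104555532, 82.1 kb upstream, the values were 154 and 157 in WT DP cells, 49.9 and 52.5 in WT SP cells and 10.9 and 5.25 in OE SP cells, with 97.4 and 105 in KO DP cells. Both falls, -1.52 ± 0.23 (SE, adjusted p = 0.00176) and -2.14 ± 0.23 (adjusted p = 2.82e-05), were called in every setting run. Another region, chr12:104548437-104548837, held 116 and 135 in WT DP cells and 94.7 and 80.3 in WT SP cells, where its change did not pass, and fell to 16.8 and 22.3 in OE SP cells (-1.92, adjusted p = 2.87e-05). At chr12:104486266-104486666 WT DP, WT SP and OE SP kept the same order, but the larger step was between the wildtype sorts. WT SP (58 and 61.5) was well below WT DP (138 and 140.1), a change of -1.15 (adjusted p = 0.00261) called in every setting run. OE SP (44.5 and 36.8) was little below WT SP (-0.51, adjusted p = 0.0432, and -0.631 to -0.387 when a library was left out). That fall was not called without either WT SP library or OE SP replicate 2. It was also lost with either rescaling, the compared groups alone, the replicate block, edgeR or DESeq2. The Gsc region that was higher in OE SP, named after its values were seen, was chr12:104509208-104509608, with 15.3 and 12.9 normalized reads in WT SP cells and 30.6 and 46 in OE SP cells (1.16, adjusted p = 0.00619).

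Lhx1, the LIM homeodomain gene of streak, node and nephric mesoderm, has its span at chr11:84517975-84525534 (minus strand). Its start region, chr11:84525389-84525789, which contains the printed sequence, held 627 and 658 normalized reads in WT DP cells, 579 and 587 in WT SP cells, 589 and 597 in KO DP cells and 255 and 285 in OE SP cells. The first 3 groups lay close together, and both OE SP libraries lay far below them, a change of -1.10 ± 0.14 from WT SP (SE, adjusted p = 7.66e-05) that was called in every setting run. Inside the gene, chr11:84523790-84524190 went the other way between the wildtype sorts. It held 63.1 and 89.8 normalized reads in WT DP cells, 91.5 and 92.7 in KO DP cells, 209 and 199 in WT SP cells and 126 and 151 in OE SP cells. WT SP was highest, with a rise of 1.38 ± 0.20 over WT DP (SE, adjusted p = 0.00131) in every setting run, and OE SP was lower than WT SP by -0.55 (adjusted p = 0.0394, up to 0.169 without either WT SP library and not called with median-of-ratios scaling). The other region in the gene, chr11:84519736-84520136, was not called in any comparison.

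The upstream side of Lhx1 held 27 regions, of which 18 fell in OE SP and 11 in WT SP, against 31.9% and 8.12% of all regions. The strongest region, chr11:84604720-84605120, 79.4 kb upstream, held 827 and 817 normalized reads in WT DP cells, 929.5 and 888 in KO DP cells, 521 and 541 in WT SP cells and 289 and 281 in OE SP cells. KO DP was highest, WT SP lay between and OE SP was lowest. The changes were -0.63 ± 0.14 in WT SP (SE, adjusted p = 0.0102, up to 0.114 when a library was left out) and -0.89 ± 0.14 in OE SP (adjusted p = 0.000242). At chr11:84602395-84602795, 77.1 kb upstream, the steps were steeper. It held 482 and 416 normalized reads in WT DP cells, 526 and 406 in KO DP cells, 156 and 172 in WT SP cells and 45.2 and 49.9 in OE SP cells, changes of -1.42 ± 0.18 (SE, adjusted p = 0.000666) and -1.69 ± 0.18 (adjusted p = 2.51e-05), both in every setting run.

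At 2 more Lhx1 regions the wildtype sorts differed and OE SP did not pass the test against WT SP. The region chr11:84553970-84554370, 28.6 kb upstream, held 68.9 and 64.7 normalized reads in WT DP cells, 47 and 39.2 in KO DP cells, 12.2 and 13.9 in WT SP cells and 5.11 and 9.2 in OE SP cells. Its change in WT SP, -1.99 ± 0.25 (SE, adjusted p = 0.000667), was the largest fall of that comparison among the 119 regions. The region chr11:84585559-84585959, 60.2 kb upstream, held 205 and 162, 225 and 206, 65.1 and 69.4 and 69.3 and 82.8 in the same order. WT SP was lower by -1.37 ± 0.19 (adjusted p = 0.001), and the OE SP libraries lay at or above those of WT SP (0.16, adjusted p = 0.512).

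The member region called higher without Etv2 was also at Lhx1. At chr11:84539957-84540357, 14.6 kb upstream, KO DP held 305 and 264 normalized reads, WT DP 133 and 111, WT SP 63.1 and 66.4 and OE SP 20.4 and 17.1. The 4 groups did not overlap, and KO DP was highest. The changes were 1.19 ± 0.19 in KO DP against WT DP (SE, adjusted p = 0.00569, up to 0.122 when a library was left out), -0.86 ± 0.19 in WT SP against WT DP (adjusted p = 0.0125, up to 0.145) and -1.56 ± 0.19 in OE SP against WT SP (adjusted p = 6.4e-05). Closer to the gene, 9.99 kb upstream, the region chr11:84535327-84535727, named after its values were seen, held 186 and 182 in KO DP cells against 67 and 61.1 in WT DP cells. That change of 1.46 ± 0.41 was larger but did not pass (adjusted p = 0.0739). The fit uses 1 spread for all 4 groups, and the OE SP libraries, which are not compared here, held 9.48 and 46 in this region. Farther out the direction was reversed in OE SP. The region chr11:84613076-84613476, 87.7 kb upstream, held 31.1 and 37.7, 32.6 and 26.8 and 30.2 and 26.1 normalized reads in WT DP cells, WT SP and KO DP and 149.5 and 138 in OE SP cells. Both OE SP libraries lay above the other 6, and the rise of 2.10 ± 0.22 (SE, adjusted p = 1.93e-05) was called in every setting run.

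Evx1, a homeodomain gene of the posterior streak, has its span at chr6:52313498-52318389 (plus strand), beside the Hoxa cluster. Its start region, chr6:52313328-52313728, held 414 and 407 normalized reads in WT DP cells, 378 and 364 in WT SP cells, 395 and 437 in KO DP cells and 158 and 206 in OE SP cells. As at Lhx1, OE SP stood apart below 3 groups that lay close together (-1.02 ± 0.17, SE, adjusted p = 0.000374). The largest Evx1 falls were downstream. At chr6:52332703-52333103, 14.5 kb past the end, the values were 545 and 559 in WT DP cells, 494 and 477 in WT SP cells, 622 and 651 in KO DP cells and 78.8 and 158 in OE SP cells, a change of -2.07 ± 0.24 from WT SP (adjusted p = 4.14e-05). At chr6:52326809-52327209, 8.62 kb past the end, WT SP held 366 and 354 and OE SP 69.3 and 149.8 (-1.77 ± 0.26, adjusted p = 0.000203). Inside the gene, chr6:52314631-52315031 fell to 109 and 193 in OE SP cells from 269.7 and 217 in WT SP cells (-0.72, adjusted p = 0.0223), a change of -0.32 without OE SP replicate 1 and not called without WT SP replicate 1 (adjusted p = 0.175) or with median-of-ratios scaling. The Evx1 region lower in WT SP, chr6:52405060-52405460, was weak, with 37.9 and 35.9 normalized reads in WT DP cells, 19.3 and 14.9 in WT SP cells and 9.48 and 3.94 in OE SP cells (-0.93, adjusted p = 0.0459, up to 0.248 when a library was left out). Its OE SP change of -0.95 (adjusted p = 0.0145) was not called without OE SP replicate 2, where it was -0.60, or without WT SP replicate 1.

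Summed over all regions of a gene, 7 of the 8 genes were lower in OE SP than in WT SP. Sums were tested with limma over 18554 genes, of which 24.4% were called lower and 9.45% higher. Mixl1 sums were 1316 and 1273 normalized reads in WT DP cells, 905.8 and 890.2 in WT SP cells, 1314 and 1280 in KO DP cells and 458.8 and 484.8 in OE SP cells, a change of -0.92 in OE SP (95% interval -1.17 to -0.68, adjusted p = 1.3e-05). Eomes sums were 4106 and 4074, 3470 and 3460, 4317 and 4164 and 1886 and 1897 in that order (-0.87, adjusted p = 0.000137). The changes of Evx1, Lhx1 and Gsc in OE SP were -0.86, -0.76 and -0.73, with adjusted p of 0.000343, 0.000811 and 0.000328. Those of Nodal and T were smaller, -0.51 and -0.44 (adjusted p = 0.00661 and 0.00968), and with median-of-ratios scaling neither was called (-0.27 and -0.19). Nodal was also not called without WT SP replicate 1, nor T without either WT SP library.

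Lefty2 was the exception in OE SP. Its sums were 1219 and 1247 normalized reads in WT DP cells, 790.8 and 804 in WT SP cells, 1226 and 1047 in KO DP cells and 965.1 and 632 in OE SP cells, so that the OE SP libraries stood on either side of WT SP (-0.03, 95% interval -0.36 to 0.31, adjusted p = 0.908). The change depended on the library: it was 0.27 without OE SP replicate 2 and -0.33 without OE SP replicate 1. Such a fit leaves 1 OE SP library and takes its spread from the other groups, so no call is drawn from it. In WT SP, 2 sums were lower than in WT DP, those of Lefty2 (-0.63, adjusted p = 0.0241) and Mixl1 (-0.53, adjusted p = 0.0109), against 2.92% of genes lower and 4.42% higher, and neither was called when any 1 of the WT DP and WT SP libraries was left out. Lhx1 (-0.50, 95% interval -0.82 to -0.18, adjusted p = 0.0533) and Gsc (-0.41, adjusted p = 0.0662) did not pass, though both were called lower, as was Eomes, with either rescaling or with the compared groups alone. In KO DP no sum of the 8 genes was called, against 5.23% of genes lower and 2.1% higher, and the furthest from WT DP was T (-0.39, 95% interval -0.64 to -0.13, adjusted p = 0.0618). The T sum was called lower with median-of-ratios scaling (-0.315, adjusted p = 0.0178), with scaling on the strongest regions (adjusted p = 0.0254) and with the compared groups alone (adjusted p = 6.46e-05). Gsc was called lower with the compared groups alone (adjusted p = 0.00275) and Lhx1 higher with scaling on the strongest regions (adjusted p = 0.0405).

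**Figure D4:**
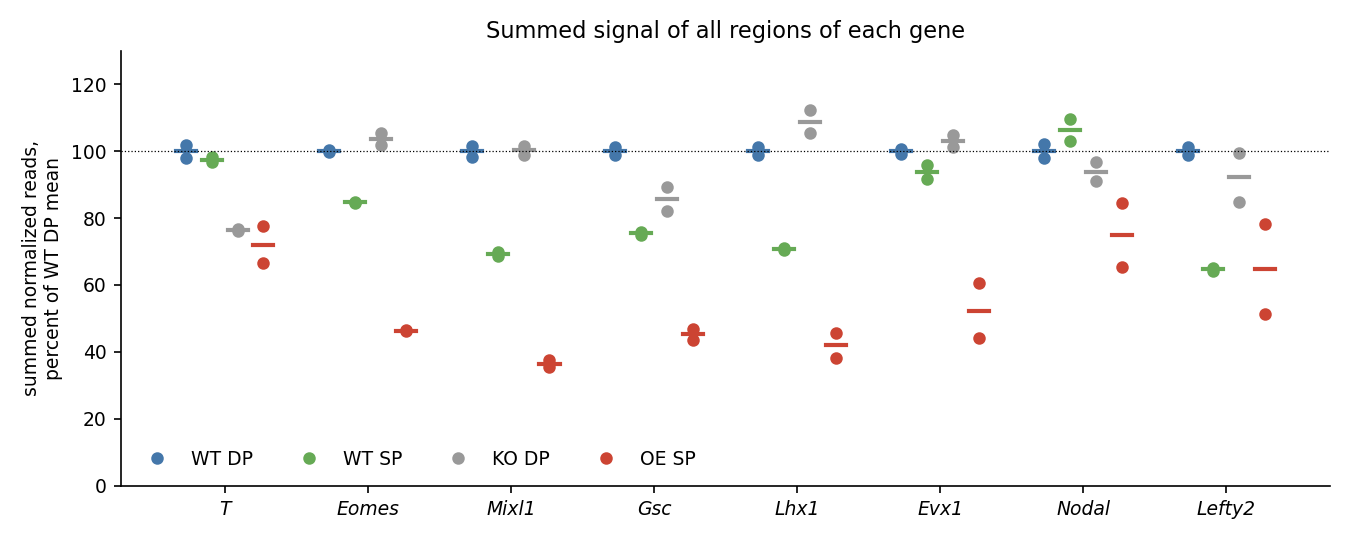
Summed normalized reads of all regions of each gene in each library (points) with group means (bars), as a percentage of the WT DP mean (y axis). At Eomes, Mixl1, Gsc, Lhx1 and Evx1 the OE SP points lie below every other library, and at Lefty2 they spread to both sides of WT SP.

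Regions at the genes and those farther out were also counted apart, with no test of the difference between them. Of the 18 regions that overlap a span or lie within 1 kb of it, 12 fell in OE SP (66.7%) and none rose, with falls at all 8 genes, and of the 101 others 58 fell (57.4%) and 6 rose (5.94%), against 31.9% and 16.6% of all regions. The medians were -0.649 and -0.714. In WT SP, 2 of the 18 fell (11.1%) and 1 rose (5.56%), near the 8.12% and 6.2% of all regions, and 25 of the 101 fell (24.8%) and 3 rose (2.97%). The medians there were -0.116 and -0.241. In KO DP none of the 18 was called. The plot by distance shows falls over the whole 100 kb, and all 6 OE SP rises at more than 10 kb.

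**Figure D5:**
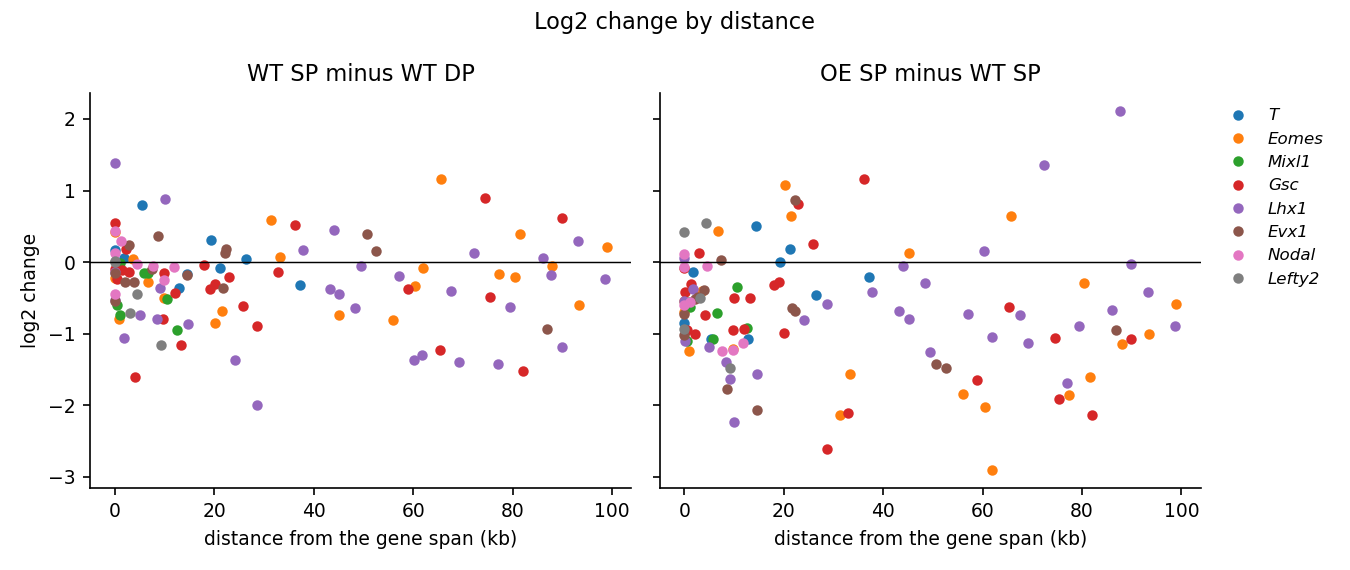
Log2 change of each region (y axis) against its distance from the gene span (x axis, kb, 0 inside the span), colored by gene, for WT SP against WT DP and OE SP against WT SP. In OE SP most points lie below 0 at every distance, and the Lhx1 region at 2.11 lies 87.7 kb from its gene.

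The other genes of streak control were read from a list of 29 genes of Nodal, Wnt and FGF signaling and of nascent mesoderm, 28 of which had regions, 297 of them tested. In OE SP, 125 of the 297 (42.1%) were lower and 28 (9.43%) higher, against 31.9% and 16.6% of all regions, with a median of -0.38 against -0.221 for all regions. In WT SP 30 (10.1%) were lower and 9 (3.03%) higher, against 8.12% and 6.2% (median 0.0215 against 0.106). In KO DP 8 (2.69%) were lower and 6 (2.02%) higher, near the 2.21% and 1.72% of all regions (median -0.0582 against -0.0693). Of the Wnt ligands, Wnt3 had 9 of 11 regions lower in OE SP. The leading region, chr11:103804639-103805039 inside the gene, held 177 and 147 normalized reads in WT SP cells and 15.3 and 15.8 in OE SP cells (-3.02, adjusted p = 2.99e-06). Wnt3a had 11 of 20 regions lower (-2.49 at chr11:59247680-59248080). Fgf8, which cells need to leave the streak, had 7 of 8 lower, led by a fall from 215 and 208 to 30.6 and 31.5 at chr19:45725636-45726036 (-2.58). Smad3, a transducer of Nodal, had 18 of 39 lower and 3 higher. Sp5, a Wnt target (-1.61), Mesp1, known from the first heart progenitors (-1.66), and Msgn1, a factor of presomitic mesoderm (-1.90), had falls as well. The leading region of Otx2, an anterior homeodomain gene with 2 of 18 regions higher and 4 lower, lies 50.3 kb from it and rose from 8.14 and 5.95 in WT SP cells to 68.6 and 84.1 in OE SP cells (2.75, adjusted p = 1.48e-05). Smad4 and Hhex, named after their values were seen, had more rises than falls in OE SP. Smad4 had 8 of 16 regions higher and 2 lower, and Hhex 4 of 8 higher and 1 lower. Of the listed genes, 15 had regions called lower only, 11 had both and none had higher only. That count was not made over all genes, and genes with many regions have more occasions for a call.

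Between the wildtype sorts, the 8 leading regions of that list with the lowest adjusted p were all lower in WT SP. They were those of Mesp2, Tbx6, Snai1, Mesp1, Wnt3a, Wnt3, Sp5 and Msgn1. These genes were picked by adjusted p, and Wnt3a had 1 of 20 regions lower and Snai1 3 of 13. The leading calls of Smad3 (1.12), Furin (1.42) and Hhex (0.671) were rises in WT SP (adjusted p = 0.00534, 0.00681 and 0.0117). Mesp2 at chr7:79810677-79811077 held 829 and 785 normalized reads in WT DP cells and 280.0 and 284 in WT SP cells (-1.50, adjusted p = 0.000267), and Tbx6, a T-box gene of presomitic mesoderm, held 670.0 and 640.0 and 224 and 234 at chr7:126785094-126785494 (-1.50). The leading regions of Snai1, which drives the epithelial to mesenchymal change (-1.67), Wnt3a (-1.63) and Wnt3 (-1.15) were lower too. In KO DP the leading call was a rise near Pcsk6, a protease that activates Nodal, at chr7:65783677-65784077, from 8.74 and 8.98 in WT DP cells to 139 and 132 (3.34, adjusted p = 1.77e-05). That region lies 78.3 kb from the gene, which had 5 of 29 regions higher and 1 lower. Smad2, Msgn1, Wnt3, Fgf8 and Fgf4 each had regions lower in KO DP, with leading changes of -1.46, -1.02, -0.91, -1.18 and -0.67. Their adjusted p were 0.0047, 0.0125, 0.0109, 0.0241 and 0.0347, in that order. Smad2 had 1 of 18 regions higher and 1 lower. Calls at the genes of this list were not checked under the other settings.

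Signal was also read at markers of other cells. The 8 endothelium and blood genes (Tek, Cdh5, Pecam1, Tie1, Tal1, Gata1, Runx1 and Sox7) summed to 11380 and 11310 normalized reads in WT DP cells, 13870 and 13920 in WT SP cells, 10490 and 10260 in KO DP cells and 13870 and 21110 in OE SP cells. Of their 161 regions, 25 (15.5%) were higher and 9 (5.59%) lower in WT SP, against 6.2% and 8.12% of all regions. In KO DP none was higher and 4 (2.48%) were lower, against 1.72% and 2.21%, and in OE SP 45 (28%) were higher and 54 (33.5%) lower, against 16.6% and 31.9%. The 6 endoderm genes summed to 4627 and 4566 in WT DP cells, 5570 and 5322 in WT SP cells, 4144 and 4183 in KO DP cells and 5804 and 6902 in OE SP cells. Sums for the 5 pluripotency genes were 4242 and 4327 in WT DP cells, 4610 and 4645 in WT SP cells, 4191 and 3874 in KO DP cells and 4413 and 5400 in OE SP cells. The 3 neuroectoderm genes gave 6065 and 6040, 5889 and 5578, 5713 and 5263, and 5154 and 5731 in that order. Of the endoderm regions, 15.7% were higher and 2.86% lower in WT SP, and 25.7% and 24.3% in OE SP. For pluripotency the shares were 7.46% and 5.97% in WT SP, near those of all regions, and 22.4% and 29.9% in OE SP. For neuroectoderm they were 1.56% and 6.25% in WT SP, and 18.8% and 25.0% in OE SP. In all WT SP and OE SP libraries the vessel and blood, endoderm and pluripotency sums were above WT DP. The streak and neuroectoderm sums were below it in all of them. Sums move with the scaling of the libraries, and the median change of all regions was 0.106 in WT SP. The sums of the marker lists were not tested. The part of cell makeup in the streak gene changes was not tested.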

How the data were processed

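The authors deposited 1 table of normalized read signal per region and library, with 1 set of regions for all 8 libraries. The tools named in the submitters' processing notes are DiffBind 3.14.1, MACS2 and Bowtie2, with build mm10 and no statement of their roles. The setting of the scaling factors, any Tn5 shift or duplicate removal, and peak pooling: not given in the sources used here. In every library 100% of values were whole multiples of a step (tolerance 0.01 reads), so whole reads were recovered for the count tests. Of 168842 regions, the 167573 (99.2%) whose mean reached 10 or more were tested in 1 fit of 4 group means on log2(value + 5), using limma 3.58.1 (R 4.3.3). That scale understates changes of weak regions. The test was two-sided, with a trended empirical Bayes spread (4 residual and 8.15 prior degrees of freedom). Each region had 1 spread for all 4 groups, so the wider OE SP pair enters the SE of every comparison. In the OE SP comparison the narrower pairs enter too, so that SE can understate the spread of the OE SP pair. Gene sums were tested likewise. Gene spans came from a RefSeq table. The text names, for each gene, regions overlapping or within 1 kb of the span, the region with the highest mean and up to 3 called regions of lowest adjusted p per comparison, and up to 8 genes of the streak list. Alternatives were a pseudocount of 1, no filter, median-of-ratios scaling, scaling on the 10000 strongest regions, the compared groups alone, a replicate block, edgeR 4.0.16 and DESeq2 1.42.0 on recovered reads, leaving out each library and a distance of 10 kb. Of the fits, only the limma region test was tried on simulated counts, for WT SP against WT DP with the same spread in every library. The wider OE SP spread, the other comparisons, the gene sums and the count tests were not simulated. Intervals of gene sums are limma intervals from the spread between libraries. Members and lists were chosen with earlier results of these data known.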

Additional observations from a re-analysis of the deposited data

How the results depend on the processing

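Member regions called higher and lower are given as pairs, with the shares of all regions after them. In WT SP against WT DP (4 and 27; 6.2% and 8.12%), the compared groups alone gave 12 and 42 (22.4% and 15.5%), scaling on the 10000 strongest regions 2 and 38 (4.3% and 12.4%), DESeq2 1 and 20 (2.78% and 5.62%), and regions within 10 kb 2 and 10. Leaving out 1 library gave 1 higher each time and 8 to 10 lower (1.06% to 1.37% and 2.08% to 3.0%). In KO DP against WT DP (1 and 2; 1.72% and 2.21%), the compared groups alone gave 11 and 19 (8.89% and 13.1%), median-of-ratios scaling 2 and 1 (2.58% and 2.31%), scaling on the strongest regions 3 and 1 (3.12% and 2.64%), edgeR 3 and 2 (3.62% and 2.78%), DESeq2 2 and 0 (1.23% and 0.819%), a pseudocount of 1 gave 1 and 0 (1.14% and 1.58%), and regions within 10 kb 0 and 1. Leaving out any library gave 0 and 0 (0.236% to 0.395% and 0.245% to 0.369%). In OE SP against WT SP (6 and 70; 16.6% and 31.9%), median-of-ratios scaling gave 12 and 53 (23.3% and 25.4%), scaling on the strongest regions 10 and 54 (22.0% and 26.3%), the compared groups alone 3 and 49 (13.9% and 25.0%), edgeR 12 and 50 (24.5% and 24.7%), DESeq2 6 and 39 (16.3% and 17.2%), and regions within 10 kb 0 and 29. Leaving out 1 library gave 3 to 10 higher and 45 to 77 lower (12.4% to 19.7% and 22.4% to 40.5%). Regions within 10 kb are fewer by construction, and leaving out a library leaves 1 sample in its group, which is assumed to vary like the others. The cause of the other shifts was not tested. Over all settings but distance, the members' median minus that of all regions in OE SP stayed between -0.523 and -0.412.

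With the replicate block the counts were 3 and 26, 1 and 0, and 7 and 67 in the order above. The shares of all regions were 6.19% and 7.9%, 1.62% and 1.85%, and 16.4% and 31.4%. Deviations of same-numbered libraries correlated between -0.00382 and 0.056, so the numbers are not taken to pair the libraries.

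The Lefty2 sum in OE SP, not called with all libraries (-0.03), was 0.274 without OE SP replicate 2 and -0.333 without OE SP replicate 1. The sums of Eomes, Gsc and Lhx1 were called lower in WT SP with median-of-ratios scaling, scaling on the strongest regions or the compared groups alone. Of the named regions, 7 of 20 calls in WT SP, 0 of 3 in KO DP and 23 of 37 in OE SP stood in every setting. Settings other than leaving out a library lost 6, 2 and 14 of them. The limits printed beside a region do not always list every setting in which its call was lost. The T sum in WT SP was called lower with scaling on the strongest regions (adjusted p = 0.0495), and that of Evx1 with that scaling (0.00547) or the compared groups alone (0.0425). In KO DP, where no sum was called, those of T, Gsc and Lhx1 were called under some settings (3 of 8). The median region held 27 to 42 reads, and the share of counting error in the spread between libraries was not measured.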
